A study of Mus musculus with 2 samples.

Results

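Limb and mesoderm patterning transcription factors were followed through the mononuclear cells of 2 mouse muscles. The set held 8 genes of the 27998 in the files, namely Pitx1, Tbx4, Tbx5, Tbx15, Tbx18, Shox2, Meox1 and Meox2, and all 8 were detected. They were chosen as regulators of position in the embryo, with earlier results of these data known. Their counts and ranks against all genes are therefore descriptions. The data were 2 droplet single-cell RNA libraries of muscle tissue from C57BL/6J mice, 1 of quadriceps (a hindlimb muscle) and 1 of diaphragm (the respiratory muscle). The labels name no transgene, treatment, age or sex for either group. Each library combined cells from several of the 10 animals in the experiment, so there was no replicate within a muscle, and muscle, pool of animals and library cannot be told apart. The tissue was digested with collagenase and dispase and viable cells were sorted by light scatter alone, which leaves out muscle fibres.

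Patterning factors are transcription factors that assign position and identity to embryonic tissue. The T-box proteins bind DNA through a shared T-box domain, whereas Pitx1, Shox2, Meox1 and Meox2 bind it through a homeodomain. Pitx1 and Tbx4 are known for hindlimb identity and Tbx5 for forelimb and heart. Shox2 is known for growth of the proximal limb skeleton, Tbx15 for limb and skeletal mesenchyme, Tbx18 for the somites, the epicardium and mural cells, and Meox1 and Meox2 for the somites and the muscle that arises from them. Fibro-adipogenic progenitors (FAPs) are the Pdgfra+ mesenchymal cells of the muscle interstitium, which make extracellular matrix and can form fat or scar.

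Cells were placed in classes by raw counts of unique molecular identifiers (UMIs), each of which stands for 1 captured RNA molecule. FAPs were barcodes with at least 1000 UMIs, at least 1 of Pdgfra and at least 50 of Dcn (decorin, a matrix proteoglycan). There were 2339 FAPs in quadriceps with 26559263 UMIs and 2010 in diaphragm with 25965824 UMIs, with a median of 10782 and 12575.5 UMIs per cell. FAP markers that the rule did not use were present, since Cd34 had a UMI in 99.3% and 99.8% of these cells and Col1a1 in 99.8% and 100%. Ly6a had one in 96.9% of quadriceps and 85.8% of diaphragm FAPs. The other classes carry the suffix -like because they rest on 10 marker lists alone. Quadriceps held 1225 smooth muscle-like, 194 B cell-like, 155 satellite cell-like, 150 Schwann cell-like, 86 tenocyte-like, 76 NK cell-like, 68 T cell-like, 53 macrophage or monocyte-like and 47 endothelial-like cells. Diaphragm held 44 smooth muscle-like, 39 B cell-like, 32 T cell-like and 9 satellite cell-like cells, with 6 or fewer of every other class. Levels are given as CPM, the UMIs of a gene for every 1000000 UMIs of any gene, summed over all cells of a class. Intervals are 95% intervals that cover counting error only. Values are compared within a gene, since UMI counts of different genes were not set against transcript length.

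In FAPs 7 of the 8 genes were past 2-fold higher in quadriceps, and none was past 2-fold higher in diaphragm. Over the 12470 genes with at least 50 UMIs in the FAPs of both muscles together, 4.83% were past 2-fold higher in quadriceps and 3.18% in diaphragm. The call used log2 of CPM plus 1, on which the median of the 8 genes was 2.79 and that of all genes 0.10. Ranked from the quadriceps side among all these genes, Tbx15 stood at 10, Shox2 at 11, Tbx4 at 54, Tbx5 at 74, Tbx18 at 76, Pitx1 at 88 and Meox2 at 203. Meox1 was the exception, at 622 from the diaphragm side. No test across animals was possible with 1 library per muscle.

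Pitx1 and Tbx4, the hindlimb identity factors, were close to absent from diaphragm FAPs. Pitx1 had 183 UMIs in quadriceps FAPs and 6 in diaphragm FAPs, or 6.89 CPM (5.93 to 7.96) against 0.231 CPM (0.0848 to 0.503). The ratio was 29.8 (13.4 to 82.3). Tbx4 had 269 and 7 UMIs, or 10.1 CPM (8.95 to 11.4) against 0.270 CPM (0.108 to 0.555), a ratio of 37.6 (18.0 to 94.3). The 6 Pitx1 UMIs of diaphragm lay in 4 cells, and the 7 Tbx4 UMIs in 7 cells. Tbx5, known for the forelimb, was also higher in the hindlimb muscle. It had 644 UMIs in quadriceps FAPs and 68 in diaphragm FAPs, 24.2 CPM (22.4 to 26.2) against 2.62 CPM (2.03 to 3.32), a ratio of 9.26 (7.20 to 12.1).

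Tbx15 and Shox2 had the highest ratios on the plus 1 scale. Tbx15 had 1253 UMIs in quadriceps FAPs and 15 in diaphragm FAPs, 47.2 CPM (44.6 to 49.9) against 0.578 CPM (0.323 to 0.953), a ratio of 81.7 (49.3 to 146). Shox2 had 2259 and 62 UMIs, 85.1 CPM (81.6 to 88.6) against 2.39 CPM (1.83 to 3.06), a ratio of 35.6 (27.7 to 46.6). Tbx18 had 657 and 72 UMIs, 24.7 CPM (22.9 to 26.7) against 2.77 CPM (2.17 to 3.49), a ratio of 8.92 (6.99 to 11.5). For each of these genes the intervals of the muscles were far apart.

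The homologues Meox1 and Meox2 went opposite ways. Meox2 had 5615 UMIs in quadriceps FAPs and 1518 in diaphragm FAPs, 211 CPM (206 to 217) against 58.5 CPM (55.6 to 61.5), a ratio of 3.62 (3.42 to 3.83). Meox1 had 2968 and 4821 UMIs, 112 CPM (108 to 116) against 186 CPM (180 to 191). Meox1 was thus higher in diaphragm by 1.66-fold (1.59 to 1.74), below the 2-fold limit.

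**Figure D1:**
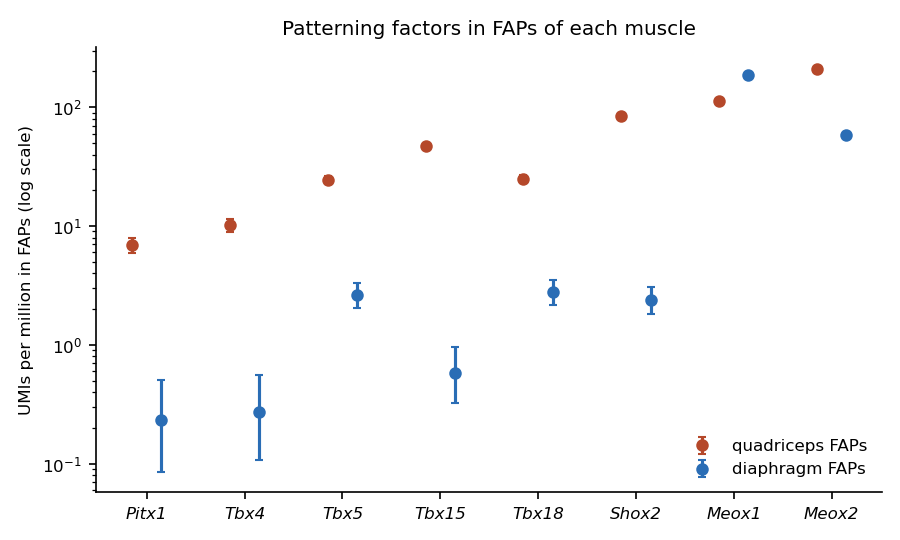
Level of each gene in FAPs of quadriceps and diaphragm, in CPM on a log axis. Points are the level over all FAPs of 1 library and bars the 95% Poisson interval, so that 7 genes sit higher in quadriceps and Meox1 sits higher in diaphragm (112 against 186).

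Other measures also moved with muscle in these FAPs. The immediate early genes Fos, Junb and Egr1, which respond within minutes to stress and tissue handling, summed to 955 CPM in quadriceps and 7159 CPM in diaphragm. With only FAPs of at most 5 Fos UMIs, which left 2082 and 532 cells, all 8 genes kept their direction, and Meox1 came to a log2 difference of -1.04 (main value -0.73), past 2-fold higher in diaphragm. The 5 smooth muscle markers were all seen and summed to 1758 CPM in quadriceps FAPs and 25.4 CPM in diaphragm FAPs. FAPs that also met the marker counts of another class, tenocyte-like cells aside, were left out, which kept 2262 quadriceps and 2009 diaphragm FAPs. The log2 differences were then 4.70 for Shox2 (main value 4.67) and 4.96 for Tbx15 (main value 4.93). The 6 tenocyte markers summed to 466 and 1652 CPM and the 5 Schwann cell markers to 99.1 and 4.89 CPM. Of 6 mesothelial markers, a list added after the data were seen, 3 were seen in quadriceps FAPs (7.27 CPM, with Lrrn4, Krt8 and Wt1 at 0) and 6 in diaphragm FAPs (108 CPM, of which Wt1 made up 92.9). Krt19 went the other way, at 6.66 CPM in quadriceps and 1.31 CPM in diaphragm FAPs. Wt1 had a UMI in 47.9% of diaphragm FAPs and each other marker in at most 10 of these cells, so the sum follows Wt1. Without FAPs that had 3 or more UMIs of this list, 7 genes were again past 2-fold higher in quadriceps. The libraries shared 5 barcodes, and leaving them out also gave 7.

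Upstream sequences are shown because most of the set moved together between the muscles. The table of promoter windows held 4 of the 8 genes, each with 250 bases before and 50 bases from the RefSeq start (build GRCm38.p6). The windows were chr3:66981722-66982021 on the minus strand for Shox2, chr9:87731211-87731510 on the minus strand for Tbx18, chr11:85896515-85896814 on the plus strand for Tbx4 and chr12:37108290-37108589 on the plus strand for Meox2. The Tbx4 window starts its transcript 10343 bases inside the GENCODE gene body, and the other 3 start at the GENCODE gene start. Capitals mark the motifs found, all other bases are in lower case, and each line runs 5′ to 3′ on the gene's strand.
Shox2: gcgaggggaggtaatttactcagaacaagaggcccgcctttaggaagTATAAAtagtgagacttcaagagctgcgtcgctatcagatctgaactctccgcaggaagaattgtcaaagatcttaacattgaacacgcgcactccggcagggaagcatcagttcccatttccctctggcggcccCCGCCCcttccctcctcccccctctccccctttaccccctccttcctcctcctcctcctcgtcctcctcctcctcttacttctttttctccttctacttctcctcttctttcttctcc
Tbx18: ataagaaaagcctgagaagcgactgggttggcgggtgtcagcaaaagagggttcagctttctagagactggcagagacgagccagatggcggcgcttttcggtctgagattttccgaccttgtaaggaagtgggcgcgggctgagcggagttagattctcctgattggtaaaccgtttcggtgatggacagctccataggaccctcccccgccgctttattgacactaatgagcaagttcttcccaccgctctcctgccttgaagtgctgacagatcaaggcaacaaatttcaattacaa
Tbx4: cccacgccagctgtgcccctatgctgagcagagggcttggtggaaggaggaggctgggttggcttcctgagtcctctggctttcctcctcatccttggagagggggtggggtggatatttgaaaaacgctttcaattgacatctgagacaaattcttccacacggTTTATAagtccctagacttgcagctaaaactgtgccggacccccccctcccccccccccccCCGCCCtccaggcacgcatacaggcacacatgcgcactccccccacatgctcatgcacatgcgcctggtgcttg
Meox2: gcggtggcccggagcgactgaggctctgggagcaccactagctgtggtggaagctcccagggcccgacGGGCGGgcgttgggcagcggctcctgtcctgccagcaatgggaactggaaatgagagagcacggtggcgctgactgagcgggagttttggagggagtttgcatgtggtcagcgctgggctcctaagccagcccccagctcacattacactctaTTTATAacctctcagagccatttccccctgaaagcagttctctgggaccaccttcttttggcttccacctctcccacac
Both strands were searched for 5 motifs, and no matches overlapped. A TATA box (TATAAA) was found in Shox2, Tbx4 and Meox2, 3 of 4 windows, and in 13.6% of all 32851 windows of that length. It lay 203, 85 and 29 bases before the start, on the opposite strand in Tbx4 and Meox2. A GC box (GGGCGG) was found in the same 3 windows and in 35.7% of all windows. The T-box core AGGTGT (13.7% of all windows), the homeobox core TAATTA (5.29%) and the bicoid-type core TAATCC (7.06%) had no match in the 4 windows. Tbx18 held none of the 5 motifs. Its 300 bases held 51.7% G and C, against 53.3% in Shox2, 59.0% in Tbx4, 60.7% in Meox2 and a median of 52.7% over all windows. Matches to such short words are descriptions of the sequence and not sites of binding.

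To compare the share of cells with a UMI, UMIs were drawn at random until each cell was left with 1000, with the B, T and NK-like cells of the same library as the background that should lack these genes. These lymphoid cells had a median of 3516 UMIs (338 cells) in quadriceps and 6041 (77 cells) in diaphragm. Shox2 was seen in 8.25% of quadriceps FAPs (7.17 to 9.44) and 0.249% of diaphragm FAPs (0.0808 to 0.580), against 0.296% of quadriceps lymphoid cells (0.00749 to 1.64). The unthinned shares of Shox2 were 53.1%, 2.44% and 0.296%. Tbx15 was seen in 4.62% and 0.0995% of FAPs, Tbx18 in 2.52% and 0.299%, and Tbx5 in 2.09% and 0.199%. The upper end of the background interval in quadriceps was at most 1.64% for any of them. The interval of Tbx5 in quadriceps FAPs (1.55 to 2.76) began below that value. In diaphragm the background was 0 of 77 lymphoid cells for each gene, with an upper end of 4.68%, so that the diaphragm FAP shares of Shox2, Tbx15, Tbx18, Tbx5, Tbx4 and Pitx1 were not separated from background there. Meox2 was seen in 17.4% and 5.92% of FAPs and Meox1 in 9.96% and 15.9%. Pitx1 at 0.599% (0.328 to 1.00) and Tbx4 at 0.983% (0.624 to 1.47) of quadriceps FAPs were not separated from the 0 of 338 lymphoid cells at this depth, which allow a share of up to 0.888%. Without thinning they were seen in 6.46% and 10.1% of quadriceps FAPs and again in 0 of 338 lymphoid cells.

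**Figure D2:**
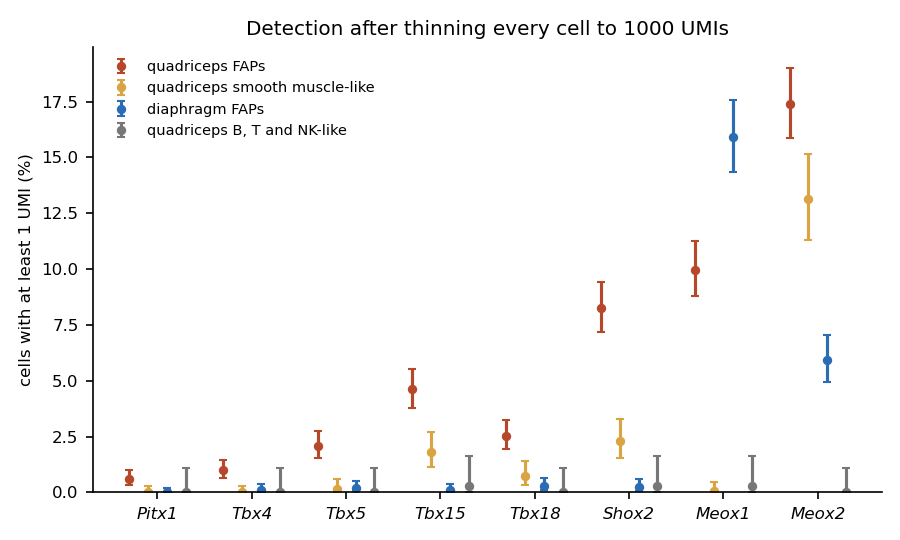
Percentage of cells with at least 1 UMI after thinning each cell to 1000 UMIs, for FAPs of both muscles and for smooth muscle-like and lymphoid cells of quadriceps. Points are shares and bars 95% binomial intervals, and the FAPs of quadriceps stand above those of diaphragm for every gene except Meox1.

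Among the classes of quadriceps with at least 20 cells, FAPs and tenocyte-like cells stood first or next to first for most of the set. FAPs came first for Tbx5, Tbx15, Tbx18, Shox2 and Meox2 and tenocyte-like cells for Pitx1, Tbx4 and Meox1, but only for Pitx1 was the first class separated from the next by its interval. With the mean of per-cell CPM, FAPs came first for 3 genes in place of 5. Tenocyte-like cells, which had tendon markers and no Pdgfra, had 19 Pitx1 UMIs, 28.1 CPM (16.9 to 43.8) against 6.89 CPM in FAPs, and these intervals did not overlap. Their Tbx4 (16.3 CPM), Tbx5 (14.8 CPM), Tbx15 (29.6 CPM), Tbx18 (23.6 CPM), Shox2 (68.0 CPM), Meox1 (129 CPM) and Meox2 (173 CPM) had intervals that overlapped that of FAPs. Diaphragm had 2 tenocyte-like cells, and no level was read from them.

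Smooth muscle-like cells, the contractile cells of vessel walls, had part of the set. FAPs were past 2-fold above quadriceps smooth muscle-like cells for 7 of the 8 genes, where 28.1% of 12260 genes were. Shox2 was at 31.4 CPM (28.8 to 34.1) in 379 of 1225 cells, Tbx15 at 18.6 CPM (16.6 to 20.8) and Tbx18 at 6.91 CPM (5.72 to 8.27), with FAPs 2.71-fold, 2.53-fold and 3.58-fold higher. Meox2 was at 149 CPM, close to FAPs (ratio 1.42, 1.36 to 1.49). Pitx1 and Tbx4 had 0 UMIs there, so FAPs were at least 39.2-fold and 57.7-fold higher when a count of 0 is set at 3 UMIs. Tbx5 had 9 UMIs and Meox1 8 UMIs, with FAPs 46.0-fold (24.1 to 101) and 239-fold (121 to 553) higher. Dcn was at 73.5 CPM in these cells and 20869.5 CPM in FAPs. Only 8 of the 1225 cells had at most 5% mitochondrial UMIs, against 1769 of 2339 FAPs.

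The smooth muscle-like cells also differed by muscle where counts allowed a comparison. Tbx15 had 318 UMIs in quadriceps and 0 in the 44 diaphragm cells, so that quadriceps was at least 3.04-fold higher. Shox2 had 536 and 2 UMIs, a ratio of 7.69 (2.12 to 63.7). Meox2 was at 149 and 57.1 CPM, a ratio of 2.60 (1.79 to 3.92). Tbx18 was at 6.91 and 6.12 CPM, a ratio of 1.13 (0.377 to 5.55), a difference that was not detectable at this depth.

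Satellite cell-like cells, the muscle stem cells, had Tbx4, a few Tbx15 UMIs and little else of the set in quadriceps. There they had 12 Tbx4 UMIs, each in a different cell of 155, or 14.4 CPM (7.45 to 25.2), and 7 of Tbx15, 8.41 CPM (3.38 to 17.3). The Tbx15 interval overlapped that of quadriceps B cell-like cells (1.62 CPM, 0.0411 to 9.05). The satellite cell-like cells of quadriceps had 1 UMI each of Shox2 and Meox1 and 0 of Pitx1, Tbx5, Tbx18 and Meox2. In quadriceps FAPs, by comparison, Shox2, Meox1 and Meox2 had 2259, 2968 and 5615 UMIs beside 269 of Tbx4. Dcn was at 137 CPM in the quadriceps satellite cell-like cells. The 9 satellite cell-like cells of diaphragm had 5 Shox2 UMIs in 4 cells (85.2 CPM, 27.7 to 199) and 2 Tbx4 UMIs (34.1 CPM, 4.13 to 123).

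Of the set, UMIs of the Meox genes alone were seen in endothelial-like cells. Meox1 had 18 UMIs in 8 of 47 quadriceps cells, 116 CPM (69.0 to 184), which overlapped the FAP interval, and 12 UMIs in 5 of 6 diaphragm cells, 478 CPM (247 to 836). Meox2 had 10 UMIs in quadriceps (64.6 CPM, 31.0 to 119) and 0 in the 6 diaphragm cells, which allow up to 120 CPM. The other 6 genes had 0 UMIs in endothelial-like cells of both muscles, which allows up to 19.4 CPM in quadriceps. Dcn stood at 149 and 120 CPM there. In Schwann cell-like, macrophage or monocyte-like and lymphoid cells of quadriceps no gene had more than 2 UMIs in a class.

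**Figure D3:**
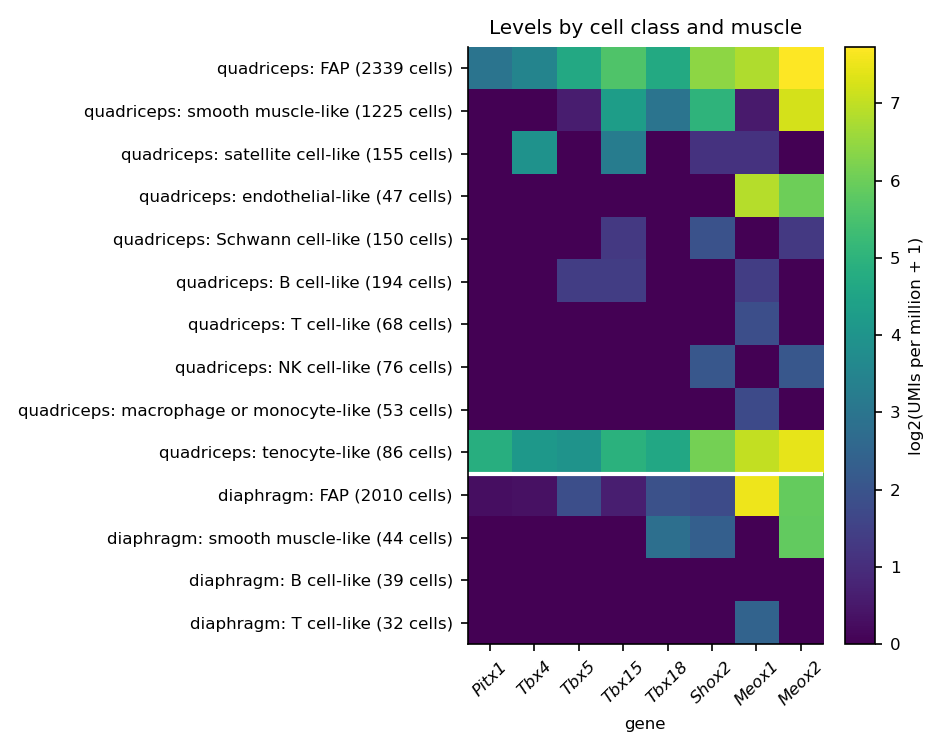
Level of each gene in every class with at least 20 cells, as log2 of CPM plus 1, with quadriceps above the white line and diaphragm under it. FAPs and tenocyte-like cells of quadriceps carry all 8 genes, smooth muscle-like cells Tbx15, Tbx18, Shox2 and Meox2, and FAPs of diaphragm mainly Meox1 and Meox2.

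Within FAPs, cells were split by 7 pairs of subset genes, none of them among the 8 genes. A cell was placed when it met exactly 1 pair. The pairs were chosen with earlier results of these data known, in which Meox1 went with the Prg4 Clu cells of quadriceps. The Meox1 level of that subset is therefore a description of a known pattern. In quadriceps, the Dmkn Sbsn subset was high in Pitx1 and without Meox1. FAPs with Dmkn and Sbsn (120 cells) had 47 Pitx1 UMIs, 28.6 CPM (21.0 to 38.1), those with Cxcl14 and Hsd11b1 (478 cells) 7 UMIs, 1.41 CPM (0.565 to 2.90), and those with Prg4 and Clu (298 cells) 15 UMIs, 4.61 CPM (2.58 to 7.60). The Dmkn Sbsn cells were 20.4-fold (9.14 to 53.4) above the Cxcl14 Hsd11b1 cells. Meox1 had 0 UMIs in the Dmkn Sbsn cells, 388 in the Cxcl14 Hsd11b1 cells (77.9 CPM) and 1080 in the Prg4 Clu cells (332 CPM, 312 to 352). From Cxcl14 Hsd11b1 to Prg4 Clu cells both genes were higher, Pitx1 by 3.28-fold (1.26 to 9.51) and Meox1 by 4.26-fold (3.79 to 4.80). For Meox1 the Prg4 Clu cells were at least 182-fold and the Cxcl14 Hsd11b1 cells at least 42.7-fold above the Dmkn Sbsn cells. Meox2 was at 31.1, 134 and 488 CPM in that order of subsets, and Tbx4 at 1.22, 14.5 and 17.2 CPM.

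Shox2 in the same subsets was at 99.2 CPM (84.6 to 116) in Dmkn Sbsn cells, 82.5 CPM (74.8 to 90.9) in Cxcl14 Hsd11b1 cells and 103 CPM (92.5 to 115) in Prg4 Clu cells. The ratio of Dmkn Sbsn to Cxcl14 Hsd11b1 cells was 1.20 (0.997 to 1.44) and that of Prg4 Clu to Cxcl14 Hsd11b1 cells 1.25 (1.08 to 1.45). Tbx15 was at 29.8, 47.4 and 64.9 CPM and Tbx18 at 11.6, 18.9 and 35.7 CPM, with Prg4 Clu cells 2.17-fold (1.59 to 3.03) and 3.08-fold (1.89 to 5.30) above Dmkn Sbsn cells. Tbx5 was at 33.5, 15.9 and 27.7 CPM, and the Dmkn Sbsn and Prg4 Clu cells did not differ beyond the interval of their ratio (0.826 for Prg4 Clu over Dmkn Sbsn, 0.584 to 1.18). FAPs with Tnmd and Thbs4 (27 cells) had 8 Pitx1 UMIs, 22.4 CPM (9.68 to 44.2), with Meox1 at 112 CPM and Meox2 at 168 CPM. FAPs with Stmn4 and Cmah (33 cells) had 2 Pitx1 and 3 Meox1 UMIs.

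A wider split set FAPs with more Fbn1 (a microfibril protein) than Lum (a matrix proteoglycan) UMIs against those with more Lum. In quadriceps Pitx1 was 3.16-fold (2.26 to 4.49) and Tbx5 1.87-fold (1.59 to 2.21) higher on the Fbn1 side (1001 cells). Meox1 was 3.47-fold (3.17 to 3.80), Tbx4 2.11-fold (1.61 to 2.80) and Meox2 1.74-fold (1.65 to 1.84) higher on the Lum side (1287 cells). Tbx15 was 1.25-fold (1.11 to 1.40) and Tbx18 1.43-fold (1.21 to 1.68) higher on the Lum side. Shox2 did not differ beyond its interval (1.07, 0.986 to 1.17). In diaphragm Tbx5 was at 5.81 CPM on the Fbn1 side (429 cells) and 1.65 CPM on the Lum side (1549 cells), Meox1 at 91.6 and 218 CPM, and Meox2 at 31.3 and 67.5 CPM.

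The difference between muscles was also read inside several subsets, since quadriceps and diaphragm held the subsets in different numbers. Prg4 Clu cells made up 12.7% of quadriceps FAPs and 3.93% of diaphragm FAPs, and Tnmd Thbs4 cells 1.15% and 11.2%. Shox2 was 55.2-fold (23.5 to 171) higher in quadriceps within Cxcl14 Hsd11b1 cells, 54.5-fold (15.0 to 452) within Prg4 Clu cells and 31.9-fold (14.3 to 80.5) within Tnmd Thbs4 cells. Tbx15 was 39.6-fold (15.3 to 147) higher within Cxcl14 Hsd11b1 cells, and had 0 UMIs in the diaphragm Prg4 Clu and Tnmd Thbs4 cells (at least 22.8-fold and 59.5-fold). Meox2 was 4.56-fold (3.77 to 5.57), 2.32-fold (1.97 to 2.73) and 4.86-fold (3.48 to 6.74) higher in quadriceps within Prg4 Clu, Cxcl14 Hsd11b1 and Tnmd Thbs4 cells.

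Meox1 differed between muscles in some subsets and not in others. It was 2.51-fold (2.21 to 2.85) higher in diaphragm within Cxcl14 Hsd11b1 cells, 2.67-fold (1.95 to 3.77) within Tnmd Thbs4 cells and 2.02-fold (1.54 to 2.69) within Gdf10 Sfrp1 cells. Within Prg4 Clu cells it was at 332 CPM in quadriceps and 300.2 CPM in diaphragm, a ratio of 1.11 (0.975 to 1.26). Meox1 was at 0 UMIs in the 10 Dmkn Sbsn cells of diaphragm too. The difference between subsets was not tested, since each rests on 1 library per muscle.

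**Figure D4:**
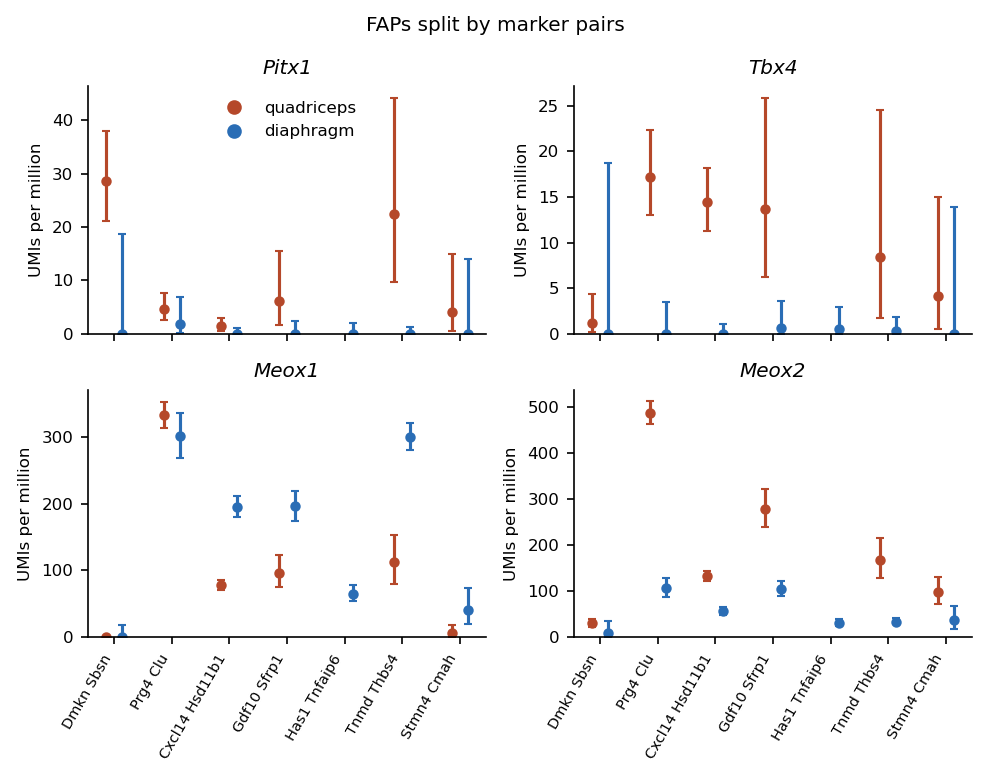
Pitx1, Tbx4, Meox1 and Meox2 in FAPs that met exactly 1 marker pair, in CPM, for subsets of at least 10 cells. Points are subset levels and bars 95% Poisson intervals, with Pitx1 at 28.6 and Meox1 at 0 in quadriceps Dmkn Sbsn cells and Meox1 at 332 in quadriceps Prg4 Clu cells.

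In the 56 diaphragm FAPs with a Tbx5 UMI, Tbx18 had 11 UMIs. That was 13.4 CPM against 2.43 CPM in the other FAPs, a ratio of 5.51 (2.61 to 10.6). In the 58 diaphragm FAPs with a Tbx18 UMI, Tbx5 had 15 UMIs, 17.7 against 2.11 CPM, a ratio of 8.40 (4.39 to 15.1). Meox1 was lower in the Tbx5 cells, at 82.6 against 189 CPM. The cells with a UMI were deeper, with a median of 14283 against 12549.5 UMIs for Tbx5 and 14346 against 12551.5 for Tbx18. In quadriceps FAPs Tbx5 and Tbx18 did not go together in this way. Tbx18 in the cells with Tbx5 had a ratio of 0.918 (0.759 to 1.10), and Tbx5 in the cells with Tbx18 0.881 (0.723 to 1.07). The Has1 Tnfaip6 cells of diaphragm (133 cells) had 16 Tbx5 UMIs, 8.53 CPM (4.87 to 13.8), above the 2.62 CPM of all diaphragm FAPs. Only 3 quadriceps FAPs met the Has1 Tnfaip6 pair. In quadriceps FAPs with a Meox1 UMI (893 cells) Meox2 was 2.81-fold (2.66 to 2.97) and Tbx18 2.02-fold (1.73 to 2.36) higher than in the other FAPs, and Pitx1 was at 3.44 against 9.13 CPM. Cells with and without a Meox1 UMI had close median depths, 10849 and 10718.5 UMIs.

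The rule for FAPs has a threshold at 50 Dcn UMIs. Just inside it (50 to 99 Dcn UMIs), Shox2 was at 86.5 CPM in 242 quadriceps cells and 3.51 CPM in 78 diaphragm cells. Just outside (20 to 49 Dcn UMIs with Pdgfra), it was at 70.1 CPM in 76 quadriceps cells. It had 0 UMIs in 57 diaphragm cells, with an upper interval end of 17.2 CPM. Meox1 was at 129 and 193 CPM inside. Outside, it had 41 and 21 UMIs, 137 CPM (98.2 to 186) and 98.0 CPM (60.7 to 150), and these intervals overlapped.

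Other patterning factors divided between the muscles more evenly than these genes. Both lists were chosen with earlier results of these data known, so the contrast is a description. Of 54 listed, 38 had at least 50 UMIs in FAPs, and 9 were past 2-fold higher in quadriceps and 5 in diaphragm, where 4.83% and 3.18% of all genes were, with a median log2 difference of 0.22 against 0.10 for all genes. Higher in quadriceps were Mab21l2 (288 and 1 UMIs), Alx4 (133 and 4), Foxd1 (70 and 2), Lmx1b (94 and 9), Irx5 (58 and 0, at least 18.9-fold), Pax9 (158 and 30), Osr2 (803 and 230), Tcf15 (289 and 89) and 1 other with a lower fold. Lmx1b, which sets dorsal identity in the limb, was at 3.54 CPM against 0.347 CPM, a ratio of 10.2 (5.16 to 23.0). Higher in diaphragm were Pax1 (4 and 217 UMIs), Tcf21 (0 and 56, at least 19.1-fold), Foxc1 (297 and 873), Meis2 (1072 and 3038) and 1 other.

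Of 13 other T-box genes, 4 had at least 50 UMIs and 2 were past 2-fold higher in quadriceps. Tbx2 was at 15.7 and 3.39 CPM (ratio 4.64, 3.68 to 5.91) and Tbx3 at 16.1 and 5.78 CPM (ratio 2.78, 2.31 to 3.37). Tbx6 and Mga had ratios of 1.25 (0.838 to 1.89) and 1.09 (1.03 to 1.16). None of these 4 was past 2-fold higher in diaphragm. The other 9 had at most 8 UMIs in FAPs of either muscle, and of them Eomes had 0 UMIs in quadriceps and 8 in diaphragm (at least 2.73-fold higher there).

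**Figure D5:**
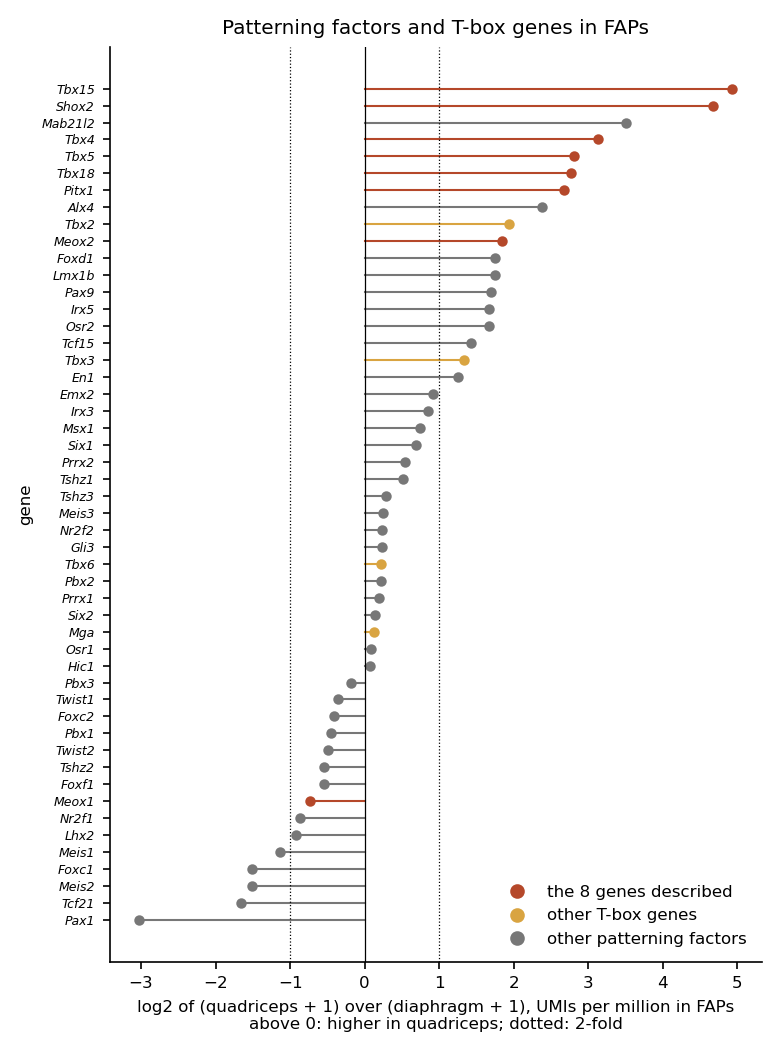
Difference between muscles in FAPs for the 8 genes, the other patterning factors and the other T-box genes with at least 50 UMIs, as log2 of quadriceps over diaphragm after adding 1 CPM. Dotted lines mark 2-fold, with Tbx15 at 4.93, Shox2 at 4.67, Meox1 at -0.73 and Pax1 at -3.02.

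On GRCm38 (GENCODE M21) the 8 genes lie on several chromosomes. Shox2 is at chr3:66971727-66981771 and Tbx15 at chr3:99240381-99354259, Tbx5 at chr5:119832668-119885219, Tbx18 at chr9:87702800-87731260, Tbx4 at chr11:85886422-85916097, Meox1 at chr11:101877510-101894374, Meox2 at chr12:37108540-37179534 and Pitx1 at chr13:55825051-55836192. All 8 are protein coding, and the data are counts per gene and do not say which exon a UMI came from. Within 200 kb of them the files held 41 other genes, of which 21 had at least 50 UMIs in FAPs, and 8 were past 2-fold higher in quadriceps and 0 in diaphragm, where 4.83% and 3.18% of all genes were. The 8 include Tbx2 and Tbx3 of the T-box list. Tbx2 lies 44.5 kb from Tbx4. Tbx3 (ratio 2.78) and the noncoding genes Gm43050 (2.54, 1.94 to 3.35) and 1700021F13Rik (3.35, 2.14 to 5.40) lie near Tbx5. Rsrc1, which overlaps the start of Shox2 on the opposite strand, was at 91.5 and 33.8 CPM (2.70, 2.50 to 2.93). Agmo near Meox2 had a ratio of 2.10 (1.90 to 2.33), and Etv4 and Cd300lg near Meox1 had ratios of 2.52 and 14.4, while Meox1 itself was higher in diaphragm. The 5 neighbours of Pitx1 with enough UMIs had ratios between 0.95 and 1.45. Annotated genes also overlap Pitx1, Tbx15, Tbx18, Meox1 and Meox2. Those of Tbx15, Tbx18 and Meox1 lie on the opposite strand, that of Meox2 on the same strand, and those of Pitx1 on both. Whether the counting used strand was not given in the sources used here. Whether UMIs of overlapping genes were kept apart is therefore not known here.

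The genes with the most similar pattern were found over the 14 classes of both muscles with at least 20 cells, by Pearson's r of log2 of CPM plus 1 among 11413 genes. The points share libraries, and the values are descriptions. Pitx1 was most like Bmp3 (r = 0.992), Kera (0.973) and Wif1 (0.958), of which Kera is also in the tenocyte list. Tbx4 was most like Mab21l1 (0.942), Robo1 (0.918) and Hoxc9 (0.912), and Tbx15 most like Hoxc10 (0.930), Hoxc9 (0.920) and Rpl39l (0.888). Hoxc10 was at 74.6 CPM in quadriceps FAPs with no UMI in diaphragm FAPs. Tbx5 was most like Trhde (0.9495), P4ha3 (0.929) and Bmp3 (0.928). Tbx18 was most like 2810032G03Rik (0.981), Inhba (0.942) and Mettl24 (0.939), and Shox2 most like 2810032G03Rik (0.925), Hmgcll1 (0.923) and Tbx18 (0.919). Meox1 was most like Rnase4 (0.940), Gja1 (0.937) and Serpina3n (0.933), and Meox2 most like Nfatc4 (0.941), Gm15867 (0.940) and Wfdc1 (0.940). A high r over all classes need not hold for the muscle difference in FAPs. Nfatc4 was at 18.6 CPM in quadriceps and 19.5 CPM in diaphragm FAPs, Gm15867 at 9.60 and 15.5 CPM and Wfdc1 at 25.9 and 52.5 CPM. None of the 3 was higher in quadriceps FAPs, unlike Meox2.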

How the data were processed

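The deposited counts were UMIs per gene and barcode, which the authors made from 10x Chromium libraries with Cell Ranger 3.0.0 on mm10. The annotation release was not given in the sources used here. The libraries held 50854519 (quadriceps) and 28545242 (diaphragm) UMIs in 5159 and 2499 barcodes. Raw counts were summed over cells of a class. A class other than FAP needed at least 3 of its markers, 10 marker UMIs and 2 times every other list's sum, with fewer than 50 Dcn UMIs (tenocyte-like cells: no Pdgfra UMI). Ighm, Trac and Trbc2 of the 53 markers were not matched. No mitochondrial limit or doublet removal was applied in the main values. Intervals were exact (Poisson, conditional for ratios, Clopper-Pearson for shares) and a count of 0 was set at 3 UMIs for bounds. No p-values were computed. Named genes were the 8 members, the 3 most similar genes of each, up to 12 listed patterning factors past 2-fold by size, T-box genes and neighbours within 200 kb. Members and lists were chosen with earlier results of these data known. Python 3.11.15, scipy 1.17.1 and scanpy 1.11.5 (Scrublet) were used, and the scripts were tested on simulated data. 1 patterning factor is not reported here.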

Additional observations from a re-analysis of the deposited data

Results flagged for a closer look

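Shox2 differed between the muscles in opposite directions in 2 classes. In FAPs it was higher in quadriceps (85.1 against 2.39 CPM). In satellite cell-like cells it was higher in diaphragm, with 5 UMIs in 9 cells (85.2 CPM) against 1 UMI in 155 quadriceps cells (1.20 CPM), a ratio of 70.9 (7.93 to 3351, counting error only). The difference between classes was not tested. All 5 satellite cell markers were seen in the sum over the 9 diaphragm cells (153 UMIs), which does not say that each cell had all of them. The immediate early genes of the 9 cells stood at 26318.5 CPM against 8774 CPM in the quadriceps cells. The part of that in the result was not tested.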

How the results depend on the processing

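Each difference between muscles in FAPs was recomputed under 13 alternatives (9 planned and 4 added after seeing the data). All 8 genes kept their direction in all 13, and the count past 2-fold higher in quadriceps was 7 in each. Meox1 passed 2-fold in 1 of them, and the lowest log2 values were those with a pseudocount of 5 CPM for Pitx1 (1.18), Tbx4 (1.52) and Tbx15 (3.23). At a minimum of 200 UMIs per gene, 374 of 10498 genes were past 2-fold higher in quadriceps (602 in the main count), since fewer low genes were tested. Scaling by the median ratio shifted the median log2 of all genes by -0.10 and gave 546 and 447 calls. With at most 5% mitochondrial UMIs, only 8 quadriceps smooth muscle-like cells were left. As a result, 0 of 8 genes had a FAP interval above theirs (8 in the main analysis). FAPs were then highest among the remaining quadriceps classes for 8 of 8 genes (main count 5). Tenocyte-like (12 cells), endothelial-like (10) and satellite cell-like cells (19) fell below the minimum of 20 cells. Beside FAPs, only immune classes still met it, those of B cells (29), macrophages or monocytes (41) and NK cells (69). The 8 of 8 therefore does not compare FAPs with tenocyte-like cells. With the mean of per-cell CPM, FAPs were highest for 3 genes, and the cause was not tested. Scrublet marked 95 quadriceps barcodes (1.84%) and 3 diaphragm barcodes (0.120%). No paired analysis was possible because each muscle had 1 library, and for the same reason no replicate could be left out. Counts of 0 to 7 UMIs in small classes limit what can be read there.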
